A study of Homo sapiens with 19 samples.

Results

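Combined knockdown of YAP and TAZ with the siRNA pair siTAZ2 plus siYAP1 was compared with control siRNA in HepG2 cells, an established line from a human liver tumour. The comparison sets the 3 arrays labelled with both siRNAs against the 3 control arrays, 6 of the 19 arrays of the series, over all 25579 genes on the array. The sample titles decide which arrays belong to it. A small interfering RNA (siRNA) is a short double-stranded RNA that guides the cleavage of an mRNA it matches.

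YAP (gene YAP1) and TAZ (gene WWTR1) are related co-activators at the end of the Hippo pathway. A kinase cascade (MST1 and MST2, then LATS1 and LATS2) phosphorylates both and holds them in the cytoplasm. When it is inactive they enter the nucleus and bind TEAD transcription factors at target genes such as CCN1, CCN2 and ANKRD1, often beside AP-1 factors. In liver the pathway is known for restraining organ size and tumour growth, and YAP activity is known to oppose the differentiated state of hepatocytes.

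The groups used were siTAZ2_siYAP1 (3 arrays, 40 nM siRNA in total), siTAZ3_siYAP2 (2 arrays, 40 nM in total, an independent siRNA against each gene), siTAZ2 alone (3 arrays, 20 nM), siTAZ3 alone (2 arrays, 20 nM), siYAP1 alone (3 arrays, 20 nM), siYAP2 alone (3 arrays, 20 nM) and a nonsense control siRNA (3 arrays). All were HepG2 cells transfected with the reagent Oligofectamine, and the labels give 24 h of inhibition. The control dose can be read from the labels as 40 nM in 1 place and 20 nM in another. An earlier deposit already held the control and YAP arrays but none with a TAZ siRNA, so deposit and siRNA pair cannot be told apart in the comparison with control. No label says that replicates came from separate cultures. The p-values therefore reflect only how these samples spread, which may be technical.

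Expression was given as log2 values after RMA, in which 1 unit is a factor of 2, and all arrays carry the same distribution, so that a shift of the whole transcriptome would not be seen. A value of 4.74 served as the background mark. It is the 95th percentile of the means of 354 olfactory receptor genes, and 13126 genes had a mean above it. Of the 10 HepG2 markers listed, 9 were measured and all of them, among them ALB, AFP and TTR, lay above the mark in every group. Their summed log2 value was 108.0 to 108.2 in siTAZ2_siYAP1 and 107.0 to 107.4 in control. Of the markers of other cells, 2 of 8 for fibroblasts, 0 of 5 for endothelium and 1 of 5 for blood were above the mark in either group, and none passed the test. Their summed values were 36.2 to 36.5, 20.2 to 20.5 and 27.7 to 28.1 in siTAZ2_siYAP1, against 36.5 to 36.8, 19.9 to 20.3 and 27.9 to 28.1 in control. The defining endothelial markers VWF and KDR were below the mark. Those above it were COL1A1 and THY1 for fibroblasts and LYZ for blood. LYZ had a mean of 13.19 in siTAZ2_siYAP1 and 13.13 in control. The highest fibroblast marker had a mean of 6.59 in siTAZ2_siYAP1 and 6.79 in control.

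One of the 19 arrays, labelled siTAZ2 replicate 3, differed from the rest. It correlated with them at a median of 0.9866, and each remaining array at a median of 0.9927 or more. Of 95 genes that differed by over 1 on the log2 scale between the other siTAZ2 arrays and the siTAZ3 arrays, it lay nearer to siTAZ3 in 83. It does not belong to siTAZ2_siYAP1 or to control, but it enters their test through the spread shared by all 19 arrays and it enters every comparison with siTAZ2. Results that it moves are also given without it.

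Both siRNA targets were strongly lowered. YAP1 read 7.55, 7.53 and 7.51 in siTAZ2_siYAP1 arrays, against 9.87, 9.81 and 9.83 in control arrays, so that 20.2% of the control level remained. WWTR1 read 7.24, 7.05 and 7.32 in siTAZ2_siYAP1 and 9.61, 9.49 and 9.54 in control, and 19.7% remained. The groups did not overlap for either gene, and both falls passed the limma test with Benjamini-Hochberg adjustment over all genes (YAP1, -2.31, SE 0.083, adjusted p = 6.27e-10; WWTR1, -2.34, SE 0.11, adjusted p = 5.72e-09). The same siRNAs given singly left YAP1 at 7.14, 7.0 and 7.18 with siYAP1 and WWTR1 at 7.13, 7.02 and 6.77 with siTAZ2. YAP1 was thus 0.42 higher in siTAZ2_siYAP1 than with siYAP1 alone (adjusted p = 0.0113). The siYAP1 arrays are in the earlier deposit and at 20 nM, so deposit, dose and the added siTAZ2 cannot be told apart there. WWTR1 differed from siTAZ2 alone by 0.23 and did not pass (adjusted p = 0.569). In siTAZ3_siYAP2, YAP1 read 7.63 and 7.85 and WWTR1 read 6.44 and 6.15. WWTR1 was 0.91 higher in siTAZ2_siYAP1 than in that pair (adjusted p = 0.000378), and YAP1 did not pass between the pairs (-0.21, adjusted p = 0.423).

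**Figure D1:**
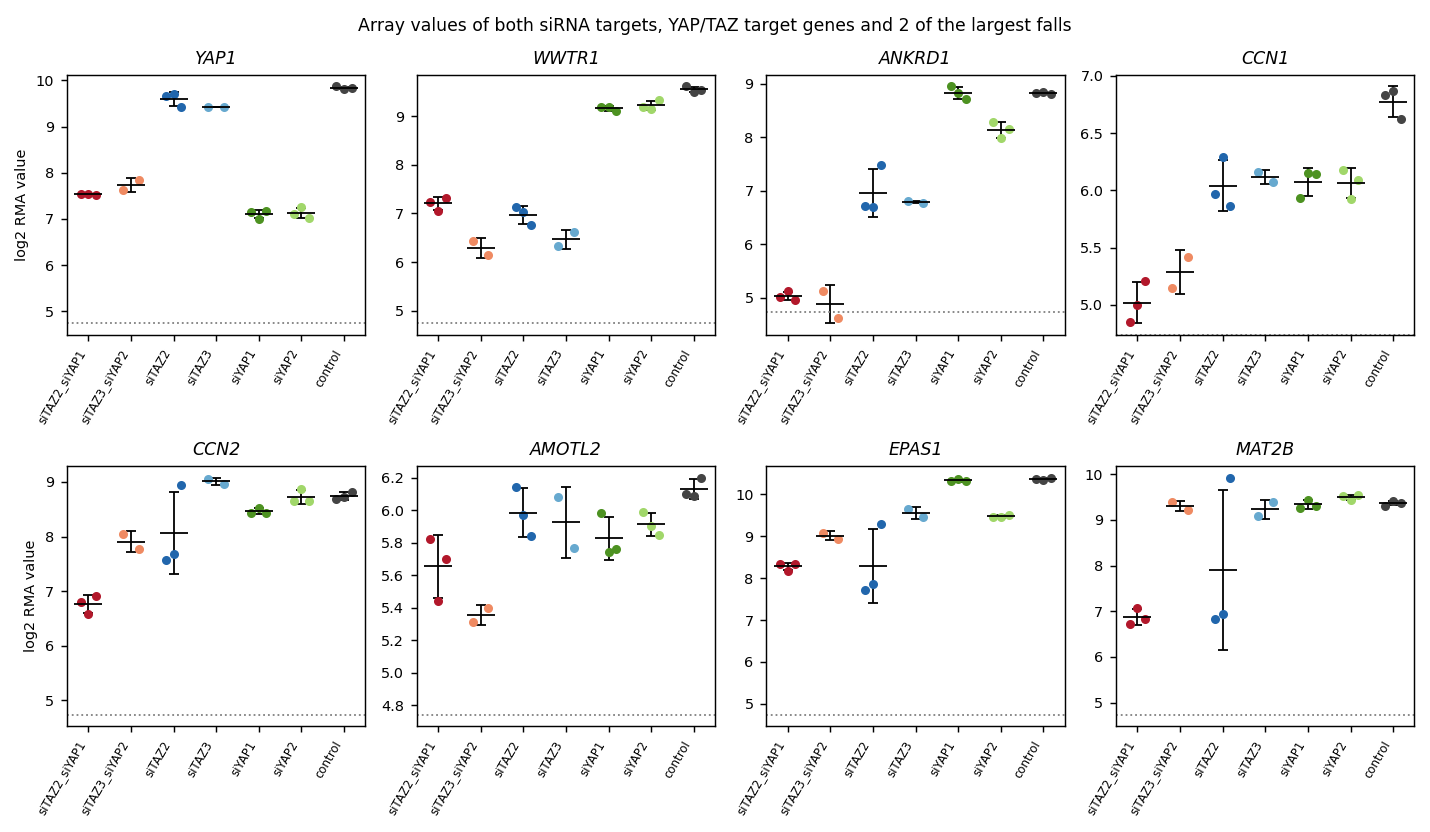
Log2 RMA values of 8 genes in every array, with siTAZ2_siYAP1 at the left and control at the right of each panel; points are arrays, black bars are group means with SD, and the dotted line is the background mark of 4.74. ANKRD1 sits between 4.96 and 5.12 in siTAZ2_siYAP1 and between 8.80 and 8.84 in control, and the array labelled siTAZ2 replicate 3 stands far from the other siTAZ2 arrays for MAT2B, EPAS1 and CCN2.

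Across all genes, 287 were higher and 337 lower in siTAZ2_siYAP1 than in control, 624 of 25579 at an adjusted p under 0.05. That is 2.44% of the genes tested, 1.12% higher and 1.32% lower. For each of the 624 genes the 3 siTAZ2_siYAP1 arrays lay wholly on one side of the 3 control arrays. This was counted only among genes that passed, not over all genes, so it adds no support beyond the test. Large changes ran mostly downward: 58 of the genes that passed were lower by over 1 on the log2 scale and 10 were higher by over 1. The median difference over all genes was 0.006. The count without the array labelled siTAZ2 replicate 3 was 1546. It was 314, 395 and 347 without control replicates 1, 2 and 3, and 379, 332 and 355 without siTAZ2_siYAP1 replicates 1, 2 and 3.

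**Figure D2:**
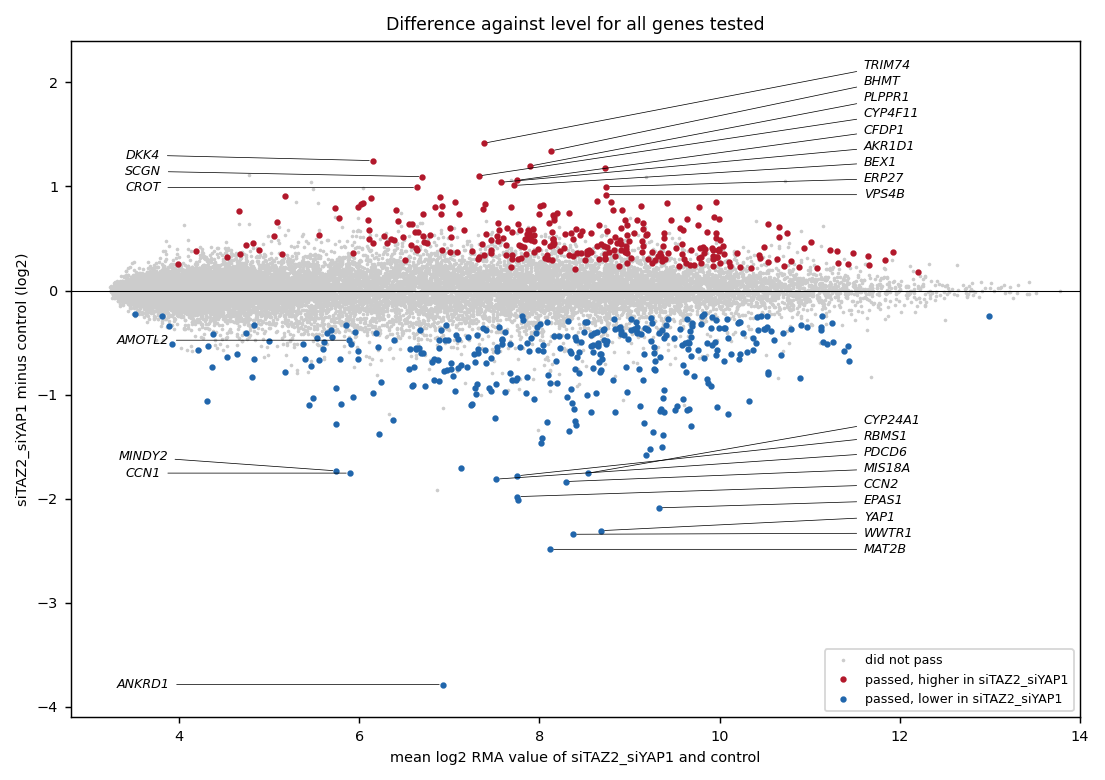
Difference between siTAZ2_siYAP1 and control (log2, vertical) against the mean log2 RMA value of both groups (horizontal), 1 point per gene; red genes passed and were higher in siTAZ2_siYAP1, blue genes passed and were lower, and grey genes did not pass. ANKRD1 lies alone at -3.78, and the largest rise, TRIM74, is at 1.42.

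The largest fall on the array was in ANKRD1, a nuclear ankyrin repeat protein widely used as a readout of YAP and TAZ. The promoters of ANKRD1 and CCN2 are shown because both genes fell and both carry the core letters to which TEAD factors are known to bind. They are RefSeq sequences of GRCh38.p14, given 5′ to 3′ in the direction of the gene and ending at the base before the annotated start, on the minus strand of chr10:90921088-90921337 and chr6:131951373-131951622. Capitals mark GGAATG, searched with its complement CATTCC, and the AP-1 letters TGANTCA, which read the same on both strands.
ANKRD1: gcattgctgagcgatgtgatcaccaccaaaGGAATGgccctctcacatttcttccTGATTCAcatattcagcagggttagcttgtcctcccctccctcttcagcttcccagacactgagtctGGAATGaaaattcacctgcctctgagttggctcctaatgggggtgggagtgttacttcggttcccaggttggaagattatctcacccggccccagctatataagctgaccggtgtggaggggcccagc
CCN2: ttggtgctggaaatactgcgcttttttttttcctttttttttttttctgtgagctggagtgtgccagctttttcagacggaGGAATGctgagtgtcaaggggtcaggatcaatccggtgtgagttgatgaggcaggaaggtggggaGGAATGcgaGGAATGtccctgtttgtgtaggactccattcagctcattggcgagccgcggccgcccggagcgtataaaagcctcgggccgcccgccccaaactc
In ANKRD1 the TEAD core letters begin at positions -220 and -128 and the AP-1 letters, here TGATTCA, at -195. CCN2 holds the TEAD core letters at -169, -104 and -95. In windows from 250 bases before to 50 after a start, 14% of all 35116 promoters hold the TEAD core letters and 7.71% the AP-1 letters. Of 16 YAP and TAZ target genes with a window, 9 hold the TEAD core letters, against 16.7% of all genes with a window. Among windows of genes lower in siTAZ2_siYAP1 than in control the share was 14.7%, and 9.64% among windows of genes higher. The letters are a description of the windows and were not tested for binding.

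ANKRD1 read 5.02, 5.12 and 4.96 in siTAZ2_siYAP1 and 8.82, 8.84 and 8.80 in control. It was 13.8-fold lower in siTAZ2_siYAP1, close to the background mark (-3.78, SE 0.17, adjusted p = 5.72e-09). CCN2, which encodes a secreted matricellular protein, read 6.81, 6.58 and 6.91 in siTAZ2_siYAP1 and 8.68, 8.73 and 8.82 in control, 3.94-fold lower (-1.98, SE 0.24, adjusted p = 0.000267). CCN1, its relative in the same family, read 4.85, 5.0 and 5.21 in siTAZ2_siYAP1 and 6.83, 6.87 and 6.62 in control, 3.37-fold lower (-1.75, SE 0.12, adjusted p = 1.55e-06). For all 3 genes every siTAZ2_siYAP1 array was more than 1 unit below every control array.

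Of 22 YAP and TAZ target genes, all measured, 8 fell, 1 rose and 13 did not pass, with a median difference of -0.41 against 0.006 over all genes. Over all genes, 1.32% fell and 1.12% rose. The list median against control was -0.09 in siTAZ3_siYAP2, -0.18 in siTAZ2 alone and 0.01 in siYAP1 alone. For siTAZ2_siYAP1 minus siTAZ3_siYAP2 the median difference of the list was -0.05. Without the array labelled siTAZ2 replicate 3, 11 fell and 1 rose. The membrane repair protein MYOF was lower by 1.10 (adjusted p = 1.7e-05), reading 4.79, 5.02 and 4.87 in siTAZ2_siYAP1 and 6.03, 6.0 and 5.96 in control. The receptor tyrosine kinase AXL read 6.87, 6.82 and 6.70 in siTAZ2_siYAP1 and 7.87, 7.63 and 7.86 in control (-0.99, adjusted p = 0.000154). The transmembrane protein CRIM1 (-0.86, adjusted p = 0.0361), the angiomotin family member AMOTL2 (-0.48, adjusted p = 0.0279) and the kinase LATS2 (-0.39, adjusted p = 0.0201) completed the falls. The AMOTL2 values of the groups did not overlap, but its call was lost without control replicate 1, 2 or 3 (adjusted p = 0.0795, 0.0737 and 0.131) and without siTAZ2_siYAP1 replicate 2 or 3 (0.143 and 0.0694). CRIM1 lost its call in 13 of the 19 fits without 1 array (adjusted p = 0.0503 to 0.143), and LATS2 without control replicate 1, 2 or 3 and without siTAZ2_siYAP1 replicate 1 or 2 (0.0552 to 0.092). NT5E, an ecto-enzyme that makes adenosine, was the member that rose, by 0.85 (adjusted p = 0.00732), reading 7.39, 7.27 and 7.78 in siTAZ2_siYAP1 and 6.54, 6.63 and 6.74 in control. It was also high with siYAP1 alone, at 7.44, 7.46 and 7.34, and with siTAZ3_siYAP2, at 7.64 and 7.52. Several familiar targets did not pass, among them F3 (-0.47, adjusted p = 0.515), PTPN14 (-0.46, adjusted p = 0.257) and NUAK2 (-0.42, adjusted p = 0.306).

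Within the Hippo pathway itself, 6 of 32 measured genes fell and none rose, with a median of -0.16, where 1.32% of all genes fell. The 6 include YAP1 and WWTR1, whose fall was the aim of the siRNAs. AMOTL2 and LATS2 are among them too and were already counted among the target genes. In the fit leaving out siTAZ2 replicate 3, 9 fell and 1 rose. Besides YAP1, WWTR1, AMOTL2 and LATS2, the falls were in AJUBA, a LIM protein that binds LATS kinases, and MOB1A, a co-activator of LATS. AJUBA read 8.45, 8.22 and 8.42 in siTAZ2_siYAP1 and 9.0, 8.96 and 9.11 in control (-0.66, adjusted p = 0.001). MOB1A read 11.07, 11.21 and 11.19 in siTAZ2_siYAP1 and 11.70, 11.68 and 11.69 in control (-0.53, adjusted p = 0.000146). MOB1A was also lower with siYAP1 alone, at 11.37, 11.17 and 11.14, but read 11.67 in both siTAZ3_siYAP2 arrays. The upstream kinases did not pass, with differences of -0.11 for STK4 (MST1), -0.23 for STK3 (MST2) and -0.02 for LATS1. None of the TEAD genes passed: TEAD1 differed by -0.24 (adjusted p = 0.301), TEAD2 by -0.38 (adjusted p = 0.66), TEAD3 by -0.05 and TEAD4 by -0.17. VGLL4, a cofactor that competes with YAP for TEAD, differed by 0.31 (adjusted p = 0.0595).

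Beyond the targets, several of the largest falls were in genes with no member of the target list among them. EPAS1, which encodes the hypoxia-inducible factor HIF-2alpha, read 8.34, 8.18 and 8.33 in siTAZ2_siYAP1 and 10.36, 10.34 and 10.40 in control (-2.09, SE 0.27, adjusted p = 0.000378). Every other group with a TAZ siRNA or siYAP2 was also below control for EPAS1, by 1.35 in siTAZ3_siYAP2, and siYAP1 alone differed by -0.03. MAT2B, the regulatory subunit of methionine adenosyltransferase 2, read 6.72, 7.07 and 6.84 in siTAZ2_siYAP1 and 9.31, 9.41 and 9.37 in control, 5.6-fold lower (-2.49, SE 0.53, adjusted p = 0.0191). It read 6.84 and 6.94 in siTAZ2 replicates 1 and 2 but 9.92 in the array labelled siTAZ2 replicate 3, and 9.38 and 9.22 in siTAZ3_siYAP2.

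The same pattern of arrays held for 3 further genes: low in siTAZ2_siYAP1 and in siTAZ2 replicates 1 and 2, and higher in every other array. PDCD6, a calcium-binding protein of membrane trafficking also called ALG-2, read 6.62, 6.94 and 6.29 in siTAZ2_siYAP1 and 8.39, 8.55 and 8.33 in control (-1.81, adjusted p = 0.0104). RBMS1, an RNA-binding protein, read 6.93, 7.11 and 6.56 in siTAZ2_siYAP1 and 8.82, 8.60 and 8.51 in control (-1.78, adjusted p = 0.0272). The focal adhesion protein TNS4 was lower by 1.71 (adjusted p = 0.00226), at 6.41, 6.31 and 6.10 in siTAZ2_siYAP1 and 8.06, 7.78 and 8.10 in control. In siTAZ3_siYAP2 these genes read 8.49 and 8.44 (PDCD6), 8.81 and 8.85 (RBMS1) and 8.23 and 7.87 (TNS4). In the array labelled siTAZ2 replicate 3 they read 8.68, 9.12 and 7.61. CYP24A1, the enzyme that inactivates vitamin D, read 7.58, 7.70 and 7.70 in siTAZ2_siYAP1 and 9.54, 9.40 and 9.30 in control (-1.75, adjusted p = 0.0206), with 8.20, 8.05 and 10.25 in siTAZ2.

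A second set of large falls came with siYAP1. MIS18A, needed to load the centromeric histone, read 7.41, 7.46 and 7.26 in siTAZ2_siYAP1 and 9.12, 9.19 and 9.32 in control (-1.83, SE 0.18, adjusted p = 2.49e-05). It read 7.38, 7.59 and 7.75 with siYAP1 alone and was at or above 9.54 in every siYAP2 and siTAZ3_siYAP2 array. CNIH1, a cargo receptor for export from the endoplasmic reticulum, read 8.38, 8.38 and 8.42 in siTAZ2_siYAP1 and 9.98, 9.94 and 9.99 in control (-1.58, adjusted p = 3.32e-08). It was low with siYAP1, at 8.61, 8.64 and 8.61, lower than control by 0.59 with siYAP2, and at 9.94 and 10.16 in siTAZ3_siYAP2. MINDY2, a deubiquitinase, read 4.52, 5.10 and 5.02 in siTAZ2_siYAP1 and 6.5, 6.66 and 6.68 in control (-1.73, adjusted p = 0.00993), but followed other arrays: it read 6.22, 6.34 and 6.06 with siYAP1 alone and 5.11, 4.77 and 4.89 with siYAP2 alone.

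Some of these calls leaned on single arrays. In the fit that leaves siTAZ2 replicate 3 out, limma's adjusted p was 5.48e-10 for MAT2B, 2.55e-05 for PDCD6, 1.12e-06 for RBMS1 and 4.45e-08 for CYP24A1. With it kept, the calls of MAT2B, RBMS1 and CYP24A1 were lost when any 1 of the 6 compared arrays (control replicates 1 to 3, siTAZ2_siYAP1 replicates 1 to 3) was left out, with adjusted p up to 0.0774, 0.121 and 0.0893. PDCD6 was lost without siTAZ2_siYAP1 replicate 3 (0.0604) and MINDY2 without siTAZ2_siYAP1 replicate 1 (0.0583).

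Among the 12 largest rises of genes with a symbol were enzymes of hepatocyte metabolism. BHMT, which remethylates homocysteine with betaine in liver, read 8.71, 8.89 and 8.81 in siTAZ2_siYAP1 and 7.40, 7.5 and 7.48 in control, 2.54-fold higher (1.34, SE 0.11, adjusted p = 4.48e-06). AKR1D1, the steroid reductase of bile acid synthesis, read 7.99, 8.12 and 8.15 in siTAZ2_siYAP1 and 7.06, 7.06 and 7.03 in control (1.04, adjusted p = 0.00262). CYP4F11, a fatty acid hydroxylase, rose by 1.10 (adjusted p = 0.00167) and CROT, a peroxisomal carnitine acyltransferase, by 0.99 (adjusted p = 1.15e-05). BHMT read 8.56, 8.38 and 8.26 with siYAP2, in the same deposit as control, and 7.41, 7.70 and 7.35 with siYAP1.

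The other rises had more varied roles. DKK4, a secreted Wnt antagonist, read 6.45, 6.85 and 7.03 in siTAZ2_siYAP1 and 5.39, 5.39 and 5.80 in control (1.25, SE 0.16, adjusted p = 0.000321). It was above all 3 control arrays in every array of every other group. PLPPR1, of the lipid phosphate phosphatase-related family, rose by 1.20 (adjusted p = 2.32e-05), the calcium-binding protein SCGN by 1.09 (adjusted p = 0.00831), BEX1 by 1.01 (adjusted p = 0.00285) and ERP27, a chaperone-binding protein of the endoplasmic reticulum, by 1.00 (adjusted p = 0.0134). CFDP1 (1.06, adjusted p = 0.000217) and VPS4B, the ATPase that disassembles ESCRT-III (0.92, adjusted p = 0.000117), rose to a level shared by all targeting groups. VPS4B, for example, read 9.09, 9.29 and 9.22 in siTAZ2_siYAP1, 9.20 to 9.70 in the other targeting arrays and 8.18, 8.35 and 8.30 in control. TRIM74 had the largest value, 1.42, on scattered arrays: 7.92, 8.27 and 8.09 in siTAZ2_siYAP1 and 5.97, 7.07 and 6.99 in control (SE 0.33, adjusted p = 0.0306). Its call was lost without control replicate 1 or 3 (adjusted p = 0.154 and 0.053) and without siTAZ2_siYAP1 replicate 1, 2 or 3 (0.0717, 0.126 and 0.0977). ERP27 was lost without control replicate 2 or 3 (0.0501 and 0.0692) and without siTAZ2_siYAP1 replicate 3 (0.0694).

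**Figure D3:**
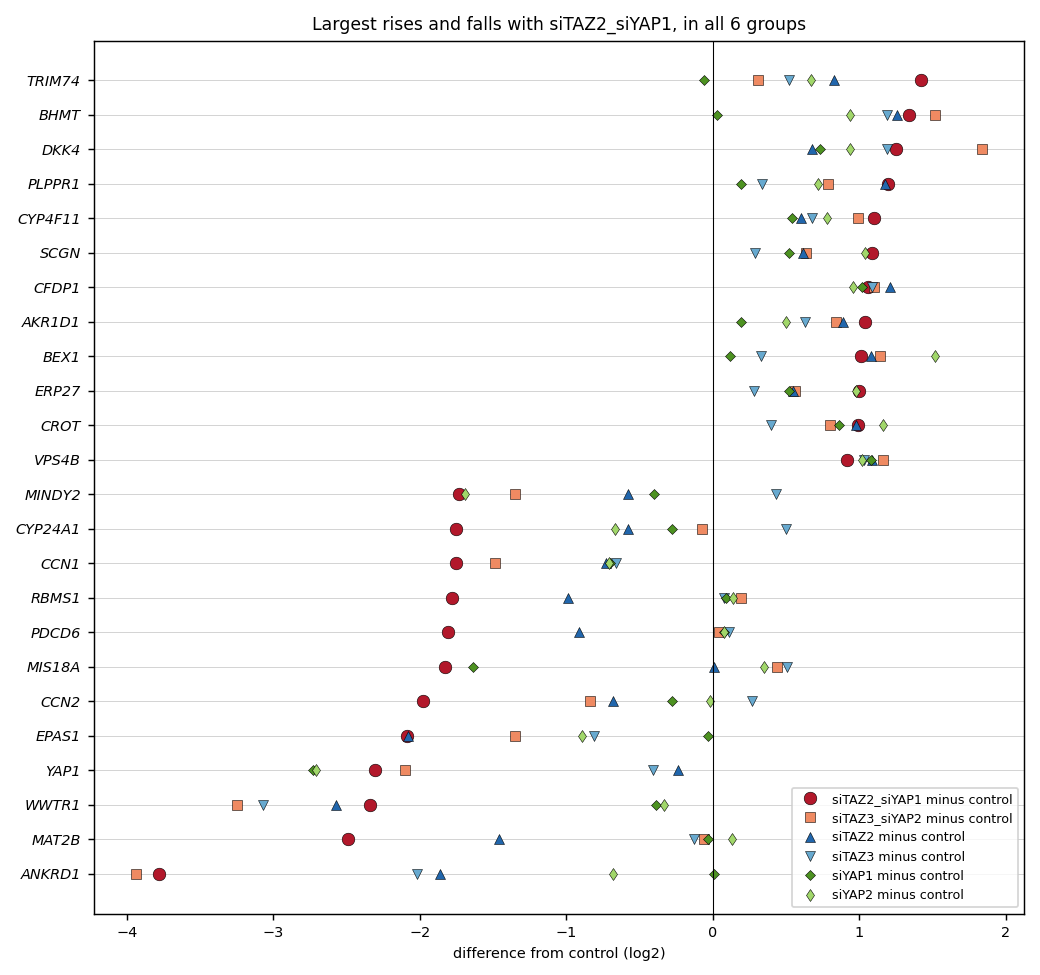
Differences from control (log2, horizontal) of the 12 largest rises and 12 largest falls with siTAZ2_siYAP1, given for all 6 groups with a targeting siRNA; the comparisons share the 3 control arrays. MAT2B, PDCD6 and RBMS1 lie at -2.49, -1.81 and -1.78 in siTAZ2_siYAP1 and near 0 in siTAZ3_siYAP2.

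Among genes of hepatocyte function, those that passed rose, except KRT19. All groups are 1 cell line, and in bulk RNA a change in every cell and a change in some cells cannot be told apart. Of 50 measured plasma protein genes 10 rose and none fell, with a median of 0.14 against 0.006 over all genes, where 1.12% of genes rose. Cortisol-binding globulin SERPINA6 read 9.85, 9.89 and 9.76 in siTAZ2_siYAP1 and 8.83, 9.0 and 9.15 in control (0.84, adjusted p = 0.00349). Antithrombin SERPINC1 read 9.19, 9.28 and 9.39 in siTAZ2_siYAP1 and 8.52, 8.65 and 8.66 in control (0.68, adjusted p = 0.000615). The others were thyroxine-binding globulin SERPINA7 (0.56), the complement regulator C4BPA (0.53), coagulation factor F5 (0.40), the fibrinogen chains FGB (0.35) and FGG (0.33), and CFB, SERPIND1 and PROS1 (0.23 to 0.26). Of 35 bile acid and drug metabolism genes 6 rose and none fell (median 0.22). UGT2B10, a glucuronosyltransferase, read 10.83, 10.84 and 10.88 in siTAZ2_siYAP1 and 10.12, 10.29 and 10.24 in control (0.63, adjusted p = 0.000321). SULT2A1, the bile acid and steroid sulfotransferase, rose by 0.63 (adjusted p = 0.00105), ADH6 by 0.55, FMO5 by 0.43 and CES1 by 0.40. Without the array labelled siTAZ2 replicate 3, 12 plasma protein genes and 10 genes of bile acid and drug metabolism rose.

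Of 22 hepatic transporters 3 rose and none fell (median 0.10), where 1.12% of all genes rose. They were the organic anion transporter SLC22A7 (0.80), the cholesterol exporter ABCA1 (0.47) and the drug exporter ABCB1 (0.42). Apolipoproteins and most transcription factors of hepatocytes did not pass. None of 18 apolipoproteins passed (median 0.08), the largest being APOC3 at 0.46 (adjusted p = 0.743). Among 18 hepatocyte transcription factors ONECUT2 rose, by 0.83 (adjusted p = 0.0274), with a list median of 0.11. Among 18 fetal liver, progenitor and biliary markers the biliary keratin KRT19 fell: it read 9.97, 9.89 and 9.89 in siTAZ2_siYAP1 and 10.59, 10.48 and 10.50 in control (-0.61, adjusted p = 0.00165). KRT19 read 10.56 and 10.36 in siTAZ3_siYAP2 and differed by -0.55 between the 2 pairs (adjusted p = 0.0082). Relative to siTAZ2 alone, in the same deposit, none of the members of these 6 lists passed, where 0.219% of all genes did. At that share, lists of this size may hold no call. In the fit without siTAZ2 replicate 3, 6 transporters rose and 1 fell, 3 apolipoproteins and 3 hepatocyte transcription factors rose, and 3 fetal or biliary markers fell. With the replicate number as a block PROS1 lost its call (adjusted p = 0.0513) and the fetal marker SOX4 gained one (-0.57, adjusted p = 0.0404).

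Most lipid genes that passed rose. In cholesterol synthesis 4 of 19 measured genes rose and none fell, with a median of 0.31, where 1.12% of all genes rose. HMGCS1, at the entry of the mevalonate pathway, read 10.28, 10.36 and 10.37 in siTAZ2_siYAP1 and 9.46, 9.67 and 9.80 in control (0.69, adjusted p = 0.00469). The sterol desaturase SC5D rose by 0.69 (adjusted p = 0.000702), CYP51A1 by 0.50 (adjusted p = 0.0174) and ACAT2 by 0.35 (adjusted p = 0.00765). In the fit leaving out siTAZ2 replicate 3, 9 rose and 1 fell. In siTAZ3_siYAP2 the list median against control was 0.04. Of all genes 1.51% were higher in siTAZ2_siYAP1 than in that pair. Among the 19 it was 3, ACAT2 included (0.31, adjusted p = 0.0324). Leaving out siTAZ2 replicate 3, 8 were higher than in that pair and 1 was lower.

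In fatty acid synthesis and triglyceride assembly 5 of 29 rose and 1 fell (median 0.14), where 1.12% of all genes rose and 1.32% fell. The elongase ELOVL6 read 9.72, 9.74 and 9.92 in siTAZ2_siYAP1 and 9.06, 9.18 and 9.13 in control (0.67, adjusted p = 0.000376). The desaturases FADS2 (0.59) and FADS1 (0.47), the lipoprotein assembly factor MTTP (0.41) and the acyl-CoA synthetase ACSL1 (0.34) also rose, and the acyltransferase GPAT3 fell by 0.43 (adjusted p = 0.0165). Of 26 genes of fatty acid oxidation 5 rose and none fell (median 0.15): CROT, the co-activator PPARGC1A (0.63), the fatty acid carrier FABP1 (0.51), EHHADH (0.30) and ACAA2 (0.24). FABP1 read 10.92, 10.96 and 10.88 in siTAZ2_siYAP1 and 10.36, 10.45 and 10.41 in control, with no overlap. Leaving out the array labelled siTAZ2 replicate 3 gave 10 rises and 1 fall in fatty acid synthesis and 7 rises and 1 fall in oxidation. With the replicate number as a block, EHHADH (adjusted p = 0.0575), ACAA2 (0.0565) and FADS1 (0.062) lost their calls.

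Genes of adhesion, the cytoskeleton and the immediate early response fell where they passed, except for ITGA1. The annexin ANXA3 read 7.30, 7.43 and 7.13 in siTAZ2_siYAP1 and 8.80, 8.82 and 8.62 in control (-1.46, SE 0.11, adjusted p = 3.34e-06). The integrin subunits ITGA2 (-1.14, adjusted p = 0.00137) and ITGAV (-1.04, adjusted p = 0.00394) and the protease inhibitor TIMP2 (-0.40) fell. ITGA1, the collagen receptor subunit, read 9.31, 9.28 and 9.32 in siTAZ2_siYAP1 and 8.44, 8.62 and 8.52 in control (0.78, adjusted p = 4.48e-06). In all, 4 of 39 integrin, annexin and matrix genes fell and 1 rose (median -0.04), where 1.32% of all genes fell and 1.12% rose. ITGA2 read 10.50 and 10.58 in siTAZ3_siYAP2, above all 3 control arrays.

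Of 39 actin and focal adhesion genes 2 fell and none rose, with a median of -0.12 and 31 members below 0. TAGLN2, an actin-binding protein, read 5.79, 5.91 and 5.55 in siTAZ2_siYAP1 and 7.13, 6.80 and 7.04 in control (-1.24, adjusted p = 1.4e-05). In siTAZ3_siYAP2 it read 6.76 and 6.65 and did not pass against control (-0.28, adjusted p = 0.402). Between the 2 pairs it differed by -0.95 (adjusted p = 0.000418). The kinase ROCK1 fell by 1.03 (adjusted p = 0.00194) and was also low with siYAP1 alone, at 9.28, 9.07 and 8.99, but not in siTAZ3_siYAP2, at 10.11 and 10.06. Of 27 immediate early genes 5 fell and none rose (median -0.18), where 1.32% of all genes fell. They were IER3 (-0.80, adjusted p = 4.98e-05), KLF6 (-0.65, adjusted p = 0.000199), the AP-1 subunits FOSL1 (-0.57, adjusted p = 0.000791) and FOSL2 (-0.38, adjusted p = 0.0204), and the phosphatase DUSP5 (-0.83, adjusted p = 0.0151). DUSP5 had a mean below the background mark in siTAZ2_siYAP1. None of 21 TGF-beta response genes passed, with TGFBR1 at -0.95 (adjusted p = 0.286), and DKK4 was the single rise among 23 Wnt feedback genes. Leaving out siTAZ2 replicate 3 gave 2 rises and 6 falls among integrin, annexin and matrix genes, 2 and 5 among actin genes, 1 and 2 among TGF-beta genes and 2 rises among Wnt genes. With the replicate number as a block the focal adhesion gene VCL gained a call (-0.40, adjusted p = 0.0102).

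Among 37 glycolysis and hypoxia genes 4 fell and none rose (median -0.03), where 1.32% of all genes fell. Besides EPAS1 these were the glucose transporter SLC2A3, the oxygen sensor EGLN1 (-0.40, adjusted p = 0.0051) and hexokinase HK2 (-0.36, adjusted p = 0.0269). Without siTAZ2 replicate 3 it was 6 falls and 1 rise. SLC2A3 read 8.53, 8.55 and 8.30 in siTAZ2_siYAP1 and 10.06, 9.92 and 9.96 in control (-1.52, SE 0.12, adjusted p = 4.48e-06). Relative to siTAZ3_siYAP2, 1 gene of this list was higher and 2 were lower. The lower genes were SLC2A3 (-0.76, adjusted p = 0.0058) and HK2 (-0.43, adjusted p = 0.0162). In siTAZ3_siYAP2, HK2 did not pass against control (0.07, adjusted p = 0.916).

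Of 43 G1/S and replication genes 4 fell and none rose (median -0.06), where 1.32% of all genes fell and 1.12% rose. The replication factor GINS1 read 9.61, 9.77 and 9.74 in siTAZ2_siYAP1 and 10.29, 10.41 and 10.44 in control (-0.67, adjusted p = 0.00046), and CDK2 (-0.36), E2F8 (-0.30) and CDK6 (-0.26) fell less. Of 36 mitosis genes KIF23 (-0.37) and PRC1 (-0.23) fell and NEK2 rose by 0.38 (median 0.03). None of 24 homologous recombination and Fanconi genes passed, the largest difference being -0.39 in FANCC (adjusted p = 0.422). Of 25 p53 targets 4 rose and 1 fell (median 0.16): TP53INP1 (0.78), the autophagy regulator DRAM1 (0.74), DDB2 (0.53) and SPATA18 (0.34) rose and the ribonucleotide reductase subunit RRM2B fell by 0.57. Without the array labelled siTAZ2 replicate 3, 8 p53 targets rose and 1 fell, 7 G1/S genes fell, and 2 mitosis genes rose and 3 fell. With the replicate number as a block, E2F8 (adjusted p = 0.067), CDK6 (0.064) and TP53INP1 (0.0565) lost their calls and GINS2 (-0.35, adjusted p = 0.0354) and CDC25C (0.26, adjusted p = 0.0334) gained one. Relative to siTAZ3_siYAP2, 4 G1/S genes were higher and 1 was lower, CDK2 (-0.42, adjusted p = 0.00125). TP53INP1 was the single p53 target that passed between the 2 pairs (1.12, adjusted p = 0.00606). In siTAZ3_siYAP2 neither CDK2 (0.06, adjusted p = 0.885) nor TP53INP1 (-0.34, adjusted p = 0.646) passed against control. H2BC12 (0.43, adjusted p = 0.0224) was the single change among 17 histone genes.

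Metal and methionine genes held a few changes, not all of them stable when 1 array was left out. The metallothioneins MT1X (-1.36, adjusted p = 8.55e-05), MT1F (-0.99, adjusted p = 0.0266) and MT2A (-0.84, adjusted p = 0.000658) fell, as did their activator MTF1 (-0.60, adjusted p = 0.0178), and the iron exporter SLC40A1 rose by 0.60 (adjusted p = 0.000452). MT1X read 8.42, 8.74 and 8.58 in siTAZ2_siYAP1 and 9.86, 9.99 and 9.97 in control, but 10.05 and 10.21 in siTAZ3_siYAP2. The metallothionein genes are near-identical copies, so their probe sets may share signal. In all, 4 of 21 genes of this list fell and 1 rose (median -0.02), where 1.32% of all genes fell and 1.12% rose. In the methionine cycle BHMT and the hepatic synthetase gene MAT1A (0.40, adjusted p = 0.0187) rose and MAT2B and MAT2A (-0.32, adjusted p = 0.00506) fell, of 21 measured genes (median 0.09). Without siTAZ2 replicate 3, 2 metal genes rose and 5 fell. MT1F, MTF1 and MAT1A each lost their call in 5 of the 19 fits without 1 array. Their adjusted p reached 0.138, 0.0872 and 0.0859. MAT2B lost its call in 6 (up to 0.0774). MT1X, MT2A, SLC40A1, BHMT and MAT2A kept theirs in all 19.

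The counts of the remaining lists stand beside 1.12% of all genes higher and 1.32% lower. Of 36 ATF4 and unfolded protein genes EDEM1 fell by 0.89 (adjusted p = 0.000637) and PDIA4 rose by 0.23 (median 0.11). Of 44 autophagy and lysosome genes 3 rose (VPS4B, DRAM1 and WIPI1) and 2 fell (MAP1LC3B and ATG16L1), with a median of 0.02. MAP1LC3B lay below the background mark in both groups. NQO1 rose by 0.18 and GSTP1 fell by 0.33 among 28 glutathione and NRF2 genes (median 0.05). AGO2, the Argonaute that cleaves siRNA targets, fell by 0.49 (adjusted p = 0.0244), the single change among 19 small RNA genes (median -0.02), and SUZ12 (-0.50) and UHRF1 (-0.35) fell and MTF2 (0.53) rose among 18 Polycomb and chromatin genes (median 0.00). None of 36 interferon-stimulated and RNA-sensing genes passed (median 0.08), with BST2 at 0.40 (adjusted p = 0.0529). None of 27 NF-kB and cytokine genes passed either (median -0.02). The fit without siTAZ2 replicate 3 gave 6 rises and 2 falls for ATF4 and unfolded protein genes, 2 and 3 for glutathione genes, 1 and 5 for Polycomb genes, 1 rise for interferon-stimulated genes and 2 falls for NF-kB genes. With the replicate number as a block NQO1 (adjusted p = 0.0542) and GSTP1 (0.0671) lost their calls and NFKB2 gained one (-0.49, adjusted p = 0.0431).

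**Figure D4:**
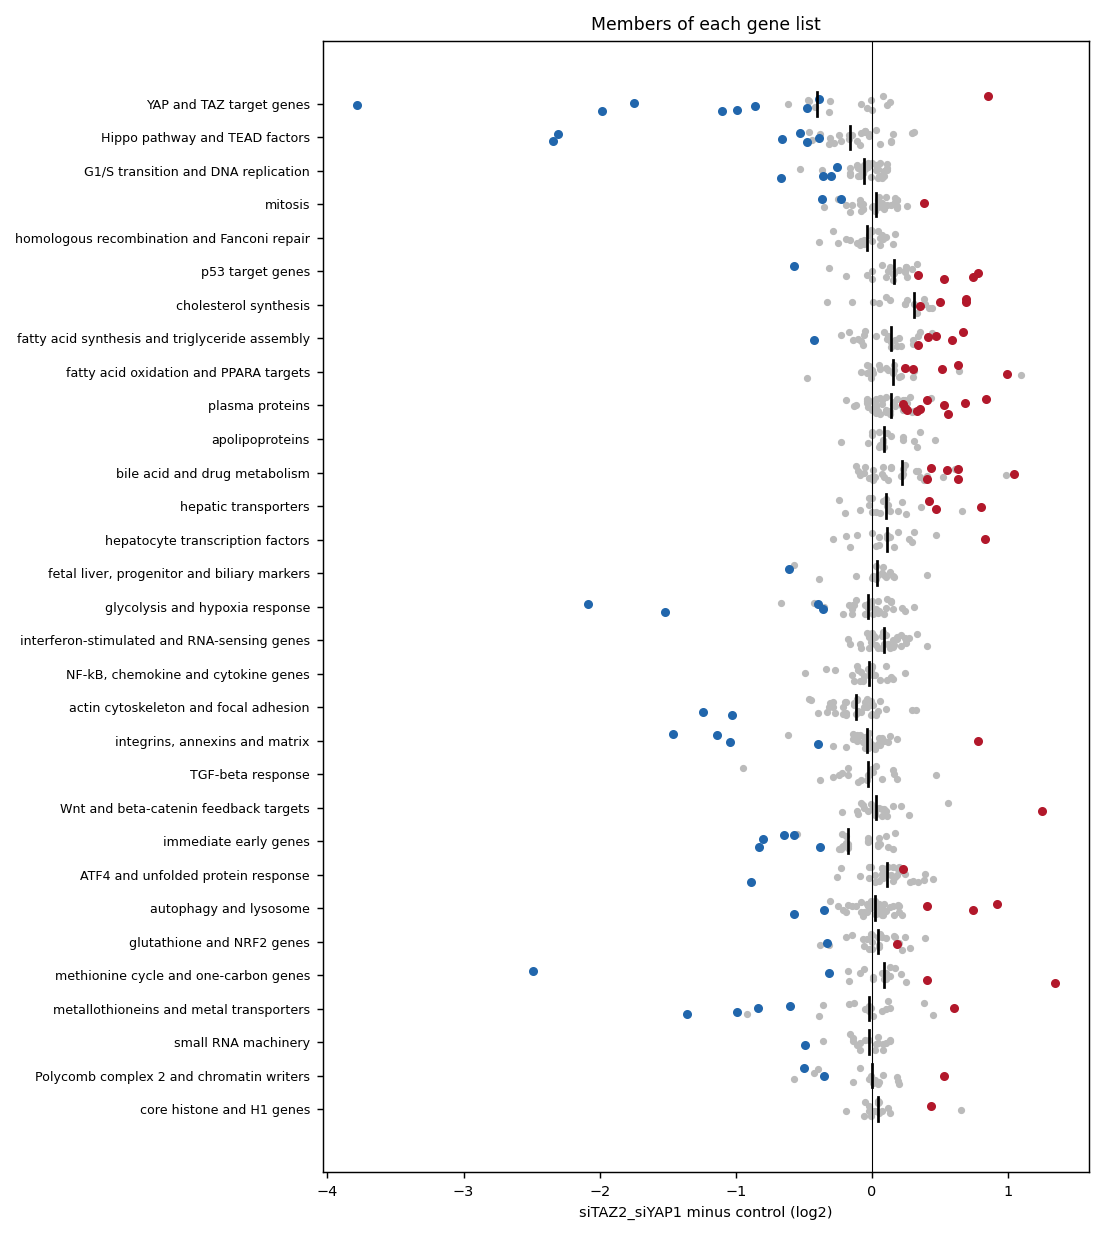
Differences between siTAZ2_siYAP1 and control (log2, horizontal) of the measured members of 31 gene lists; points are genes, red where they passed and were higher in siTAZ2_siYAP1, blue where they passed and were lower and grey where they did not pass, and black ticks are list medians. The median lies at -0.41 for YAP and TAZ target genes and at 0.31 for cholesterol synthesis.

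Across the lists, 100 different genes passed between siTAZ2_siYAP1 and control. Leaving out 1 array could not reverse their direction, because the groups did not overlap for any gene that passed. Of the 100 genes, 56 kept their call in all 19 fits without 1 array, among them ANKRD1, CCN1, CCN2, MYOF, AXL, EPAS1, SLC2A3, BHMT, SERPINC1, HMGCS1 and ELOVL6. Between 29 and 41 were lost without 1 of the 3 control arrays, 33 without any 1 of the siTAZ2_siYAP1 arrays and 0 without the array labelled siTAZ2 replicate 3. Those lost in 10 or more of the 19 fits were CDK6, CFB, CRIM1, DDB2, E2F8, EHHADH, FADS1, GSTP1, NQO1 and RRM2B.

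Where the 2 combined pairs were set directly against each other, 385 genes were higher and 250 lower in siTAZ2_siYAP1 than in siTAZ3_siYAP2, 2.48% of those tested (1.51% higher and 0.977% lower). Without siTAZ2 replicate 3, an array of neither group, 770 were higher and 733 lower. The total was 364 and 317 without siTAZ3_siYAP2 replicates 1 and 2, and 405 and 421 without siTAZ2_siYAP1 replicates 2 and 3. Both groups are in the same deposit. The largest differences were MAT2B (-2.43, adjusted p = 0.0404), MIS18A (-2.28, adjusted p = 9.02e-06), RBMS1 (-1.97, adjusted p = 0.0271), PDCD6 (-1.85, adjusted p = 0.0172) and MT1F (-1.81, adjusted p = 0.000568) among genes lower in siTAZ2_siYAP1. The genes highest in siTAZ2_siYAP1 relative to the other pair were OSTM1, a lysosomal chloride transporter subunit (2.42, adjusted p = 5.84e-07), the death receptor TNFRSF21 (2.14), LYRM1 (1.95), the glypican GPC6 (1.94) and the kinase UHMK1 (1.94). TNFRSF21 read 10.18, 10.18 and 10.24 in siTAZ2_siYAP1 and 7.98 and 8.15 in siTAZ3_siYAP2, and was 7.75, 7.90 and 7.99 with siYAP2 alone. It read 10.28, 10.16 and 10.15 in control, a difference of 0.00 for siTAZ2_siYAP1 minus control (adjusted p = 0.997).

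The readout genes of YAP and TAZ were closer between the pairs, though not all alike. ANKRD1 differed by 0.15 (SE 0.19, adjusted p = 0.942), reading 5.13 and 4.63 in siTAZ3_siYAP2, and CCN1 by -0.26 (SE 0.14, adjusted p = 0.554). Mean values of ANKRD1 were 5.03 in siTAZ2_siYAP1 and 4.88 in siTAZ3_siYAP2, and those of CCN1 were 5.02 and 5.28. Both genes thus lay near the background mark in both pairs, which limits what difference could be detected. Whether the pairs lowered YAP and TAZ activity equally was not tested. CCN2 was lower in siTAZ2_siYAP1 by 1.14 (SE 0.27, adjusted p = 0.0359), against 8.05 and 7.77 in siTAZ3_siYAP2. With all arrays it was the single member of the 22 target genes that passed between the pairs. Leaving out siTAZ2 replicate 3, 4 were lower in siTAZ2_siYAP1 (CCN2, ASAP1, F3 and CRIM1) and none higher. Between the pairs, the call of MAT2B was lost in 16 of the 19 fits without 1 array (adjusted p = 0.0538 to 0.212). That of RBMS1 was lost without siTAZ2_siYAP1 replicate 1, 2 or 3 and without either siTAZ3_siYAP2 array (0.0559 to 0.169), and that of PDCD6 without siTAZ2_siYAP1 replicate 1 or 3 and without either siTAZ3_siYAP2 array (0.0537 to 0.124).

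Against siTAZ2 alone, in the same deposit but at 20 nM, 54 genes were lower and 2 higher in siTAZ2_siYAP1, or 0.219% of those tested (0.211% lower and 0.00782% higher). YAP1, the added target, had the largest difference (-2.07, adjusted p = 3.18e-09). ANKRD1 was lower than with siTAZ2 alone by 1.93 (adjusted p = 4e-05): siTAZ2 alone read 6.71, 6.70 and 7.48. CCN1 was lower by 1.02 (adjusted p = 0.001) against 5.97, 6.29 and 5.86 in siTAZ2, CCN2 by 1.3 (adjusted p = 0.0397), MIS18A by 1.84 (adjusted p = 0.000116) and CNIH1 by 1.29 (adjusted p = 9.02e-07). Also lower were ANXA3 (-0.95, adjusted p = 0.000918), ROCK1 (-1.17, adjusted p = 0.00302) and SUZ12 (-0.69, adjusted p = 0.00279). The 2 rises were GCH1, the first enzyme of tetrahydrobiopterin synthesis (0.37, adjusted p = 0.0481), and FAM98A (0.26, adjusted p = 0.0273).

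When siTAZ2 replicate 3 was left out, 99 genes passed against siTAZ2, and 5 passed when only the siTAZ2_siYAP1 and siTAZ2 arrays were fitted, without ANKRD1 (adjusted p = 0.235), MIS18A (0.545), CCN2 (0.897), CNIH1 (0.0559), GCH1 (0.897) or FAM98A (0.897). Without that array the differences were -1.67 for ANKRD1 (adjusted p = 4.28e-06), -1.11 for CCN1 (adjusted p = 0.00081), -0.86 for CCN2 (adjusted p = 0.000949) and 0.28 for FAM98A (adjusted p = 0.0212), while GCH1 did not pass (0.38, adjusted p = 0.0618). EPAS1, at -0.01 with all arrays, was then 0.50 higher in siTAZ2_siYAP1 than with siTAZ2 alone (adjusted p = 0.00432). In the 19 fits without 1 array, CCN2 lost its call in 16 (adjusted p = 0.0535 to 0.21), GCH1 in 16 (0.0575 to 0.214) and FAM98A in 5 (0.0501 to 0.134). The total was 26 and 32 without siTAZ2_siYAP1 replicates 1 and 2. With all arrays no member of the plasma protein, bile acid, cholesterol or fatty acid lists passed between siTAZ2_siYAP1 and siTAZ2, where 0.219% of all genes did. Without siTAZ2 replicate 3 the cholesterol genes SQLE and MSMO1 were higher.

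Against siYAP1 alone, which is in the other deposit and at 20 nM, 283 genes were higher and 386 lower in siTAZ2_siYAP1, 2.62% of those tested (1.11% higher and 1.51% lower). Without siTAZ2 replicate 3, an array of neither group, 818 were higher and 1029 lower. The total was 355, 375 and 402 without siTAZ2_siYAP1 replicates 1, 2 and 3, and 409 and 401 without siYAP1 replicates 2 and 3. ANKRD1 showed the widest gap: it read 8.95, 8.82 and 8.72 with siYAP1 and was lower in siTAZ2_siYAP1 by 3.80 (adjusted p = 1.28e-08). MAT2B (-2.46, adjusted p = 0.0197), TNS4 (-2.17, adjusted p = 0.0004), EPAS1 (-2.05, adjusted p = 0.000592) and WWTR1 (-1.96, adjusted p = 1.18e-07) followed. The rises were led by TRIM74 (1.48, adjusted p = 0.0227), BHMT (1.31, adjusted p = 1.24e-05), SERPINF2, which encodes alpha-2-antiplasmin (1.12, adjusted p = 0.0118), the methyltransferase TMT1A (1.11, adjusted p = 0.000173) and PLPPR1 (1.01, adjusted p = 0.000173). SERPINF2 and TMT1A were low with siYAP1, at 8.21, 8.67 and 8.40 and at 8.38, 8.80 and 8.63, and did not pass between siTAZ2_siYAP1 and control (0.29 and 0.23). The call of MAT2B was lost without any 1 of the siTAZ2_siYAP1 or siYAP1 arrays (adjusted p up to 0.0833), as was that of TRIM74 (up to 0.1), and that of SERPINF2 without replicate 1 of either group (0.0551 and 0.054).

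Whether the pair did more or less than both siRNAs singly was tested as an interaction: siTAZ2_siYAP1 minus siTAZ2, less siYAP1 minus control. Each of these differences stays within 1 deposit. It passed for 28 genes, 0.109% of those tested, 7 with a positive value (0.0274%) and 21 with a negative one (0.0821%). Without siTAZ2 replicate 3 it passed for 50, and for 17 or 18 without control replicate 2, siYAP1 replicate 2 or siTAZ2_siYAP1 replicate 1 or 2. ANKRD1 had the most negative value, -1.94 (SE 0.24, adjusted p = 0.0017). The single siRNAs changed it by -1.86 (siTAZ2) and 0.01 (siYAP1) relative to control, a sum of -1.85, and siTAZ2_siYAP1 lowered it by 3.78. CCN1 did not pass (-0.32, adjusted p = 0.631), with a sum of -1.43 beside the measured -1.75, and neither did CCN2 (-1.02, adjusted p = 0.438), with a sum of -0.96 beside -1.98. ANKRD1 was the single member of the 22 target genes that passed.

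The negative values of VPS4B, CFDP1 and DRAM1 came with levels above control in every group with a targeting siRNA. VPS4B had -1.25 (adjusted p = 0.00107), CFDP1 -1.17 (adjusted p = 0.0142) and DRAM1 -1.07 (adjusted p = 0.000755). DRAM1 read 7.35, 7.57 and 7.5 in siTAZ2_siYAP1, 7.64, 7.46 and 7.62 in siTAZ2, 7.60, 7.76 and 7.75 in siYAP1 and 6.71, 6.90 and 6.60 in control. CSGALNACT2, a chondroitin sulfate synthase, had -1.73 (adjusted p = 0.018), with siTAZ2 arrays at 6.95, 7.32 and 8.09.

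The genes with positive values named here had lower means with siYAP1 alone than with the pair. The RNA-binding protein ZCRB1 read 8.78, 8.69 and 8.88 in siTAZ2_siYAP1, 9.80, 9.81 and 9.74 in siTAZ2, 7.94, 8.10 and 7.84 in siYAP1 and 9.86, 10.02 and 9.88 in control (0.96, adjusted p = 0.00093). Catalase, CAT, read 9.21, 9.22 and 9.27 in siTAZ2_siYAP1, 10.19, 10.21 and 10.26 in siTAZ2, 8.13, 8.35 and 8.33 in siYAP1 and 9.92, 10.05 and 10.08 in control (0.76, adjusted p = 0.00107). Both read near control in siTAZ3_siYAP2, at 9.97 and 10.07 (ZCRB1) and 10.06 and 10.16 (CAT). ATE1, an arginyltransferase (0.66, adjusted p = 0.013), and SGO2, a guardian of centromeric cohesion (0.63, adjusted p = 0.0048), were likewise lowest with siYAP1 alone, and so was YAP1 itself among these 4 groups (0.66, adjusted p = 0.0448). The call of YAP1 was lost in 13 of the 19 fits without 1 array (adjusted p = 0.0538 to 0.156), that of CSGALNACT2 in 5 (0.0527 to 0.077), and those of ATE1 (0.0512 and 0.0538) and CFDP1 (0.0611 and 0.0539) in 2 each. With only these 4 groups fitted, YAP1 (adjusted p = 0.125), ATE1 (0.098), SGO2 (0.098), CSGALNACT2 (0.161) and CFDP1 (0.112) lost their calls.

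**Figure D5:**
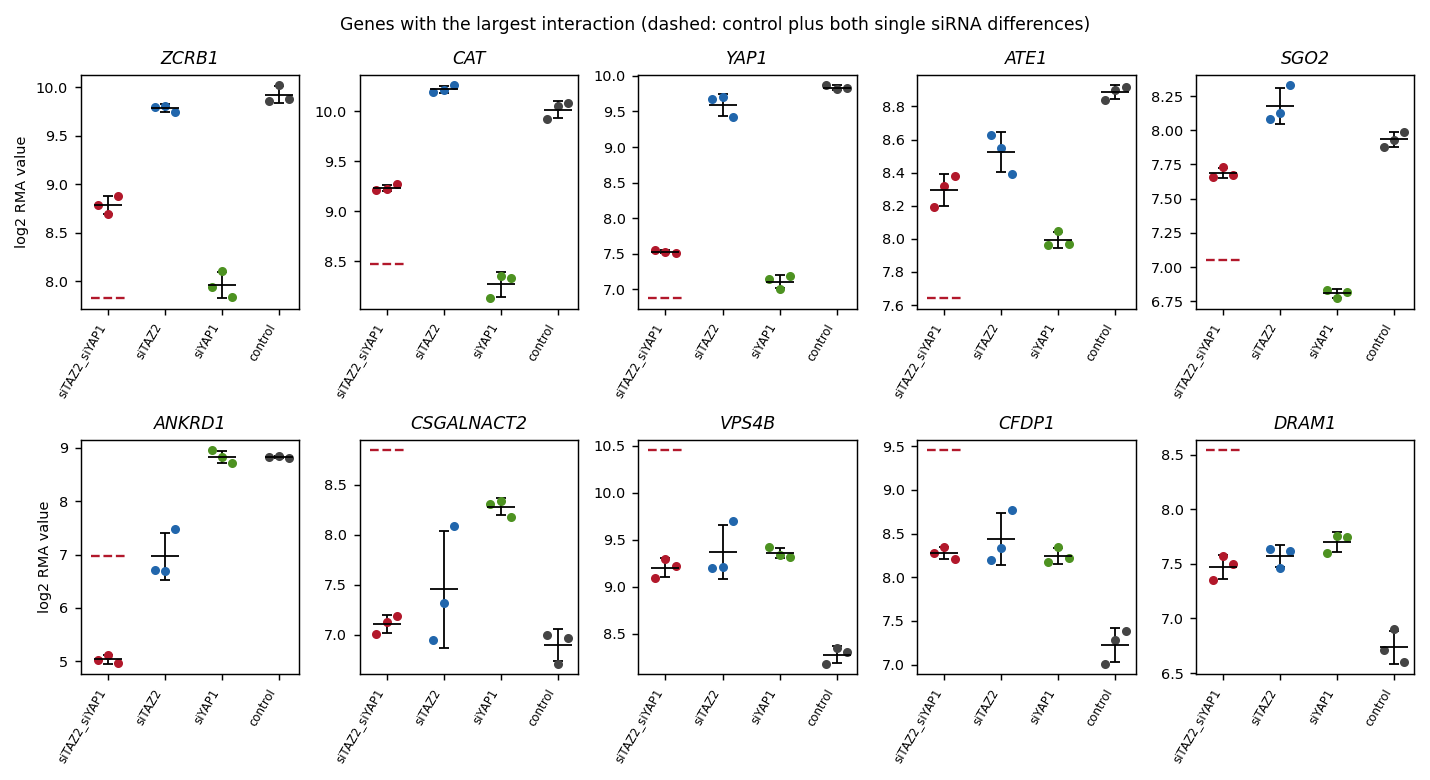
Log2 RMA values per array of the 5 most positive (top) and 5 most negative (bottom) interactions in siTAZ2_siYAP1, siTAZ2, siYAP1 and control; points are arrays, black bars are means with SD, and the dashed line is the control mean plus both single siRNA differences. ANKRD1 falls below its dashed line by 1.94, and CAT and ZCRB1 lie above theirs by 0.76 and 0.96.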

How the data were processed

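Cells of 7 siRNA groups were measured on 19 expression arrays. The authors deposited 1 table of log2 values for 25582 probe sets, made by RMA (background correction, quantile normalization and probe summary) per the submitters' processing notes, with the version not given in the sources used here. Every array has the same distribution (median 4.83), and precision is limited by how many arrays there are. Of the probe sets, 24244 carry 1 gene symbol and 1338 none; 3 symbols with several probe sets were represented by 1 each, leaving 25579 genes. Levels are not compared between genes.

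Group means were estimated by limma 3.58.1 (lmFit, contrasts.fit and eBayes without a trend; R 4.3.3) from the 19 arrays together, with Benjamini-Hochberg adjustment over all genes and a threshold of 0.05. The fit was tested on simulated data. No label pairs the arrays, and the main fit did not pair them. The replicate number entered only as a block, among the alternatives. Deviations of same-numbered siTAZ2_siYAP1 and control arrays correlated at 0.108, 0.113 and 0.125. Against siTAZ2 alone the correlations were 0.145, -0.003 and 0.056, and against siYAP1 alone 0.181, 0.026 and 0.029. Against siTAZ3_siYAP2 they were -0.186 and 0.018. Alternatives were a stricter threshold, an intensity trend, leaving out dim genes, cyclic loess, only the groups compared, a replicate block, array weights and leaving out each array.

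The genes named, all with a symbol, are 6 pathway genes, the 12 largest rises and falls that passed against control, the 5 largest each way in the other comparisons, and up to 6 that passed per list. F3, PTPN14, NUAK2, STK3, STK4, LATS1, VGLL4, the TEAD genes, and FGG, PROS1, SERPIND1 and CFB were added after their values were seen. Of 968 places on 35 lists 897 were matched. The members and lists were chosen with earlier results of these data known. Promoters are RefSeq sequences.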

Additional observations from a re-analysis of the deposited data

Results flagged for a closer look

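The 2 siRNA pairs, both aimed at YAP1 and WWTR1, differed from each other in 635 genes by limma. The named genes higher in siTAZ2_siYAP1 than in siTAZ3_siYAP2 were OSTM1 (2.42), TNFRSF21 (2.14), LYRM1 (1.95), GPC6 (1.94) and UHMK1 (1.94), and those lower were MAT2B (-2.43), MIS18A (-2.28), RBMS1 (-1.97), PDCD6 (-1.85) and MT1F (-1.81).

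The effect of siYAP1 differed with and without siTAZ2 in 28 genes by the test of the interaction. Positive values were found for ZCRB1 (0.96), CAT (0.76), YAP1 (0.66), ATE1 (0.66) and SGO2 (0.63), and negative ones for ANKRD1 (-1.94), CSGALNACT2 (-1.73), VPS4B (-1.25), CFDP1 (-1.17) and DRAM1 (-1.07). Of these, YAP1, ATE1, SGO2, CSGALNACT2 and CFDP1 lost their calls when only the groups compared were fitted.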

How the results depend on the processing

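Counts of genes that passed are given in the order siTAZ2_siYAP1 against control, siTAZ3_siYAP2, siTAZ2 and siYAP1, and the interaction. They were 288, 313, 28, 276 and 16 at a threshold of 0.01, and 1942, 1027, 359, 1699 and 126 with array weights (2123, 1183, 152, 1948 and 88 with weights and without siTAZ2 replicate 3). Fitting only the groups compared gave 1287 against control, 5 against siTAZ2 and 11 for the interaction. Leaving out 1 array gave 314 to 1546, 317 to 1503, 26 to 99, 355 to 1847 and 17 to 50. The replicate block gave 627, 620, 62, 668 and 28, and with it the YAP1 interaction (adjusted p = 0.0628) and GCH1 against siTAZ2 (adjusted p = 0.0657) lost their calls. The estimation of array weights stopped short of its convergence tolerance in 1 of the weighted fits. The cause of these moves was not tested. Of 25 genes named for the comparison with control, 17 were called in every alternative. Over 700 values 0 changed direction and 41 lost the call. Leaving out 1 array could not reverse the direction of these genes, because their groups did not overlap. AMOTL2 was lost with an intensity trend (adjusted p = 0.0592). The 3 or fewer arrays a group, and genes near the background mark, limit what could be detected.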
